A study of Mus musculus with 6 samples.

Results

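Repeat-derived RNA was compared between testes of Dnmt3L knockout mice at 10 days post partum (10dpp) and at 16.5 days post coitum (16.5dpc). The tables give 1 value per repeat family and library, and the 669 families with 50 or more counts in both knockout libraries together were taken, of 787 families in the whole series and 781 listed in either of these libraries. The 118 families left out have at most 49 counts in both libraries together, and none of the 669 was at 0 in either library. Just under the minimum lay Tigger11a (49 counts), RLTR43A (48.7) and MLT1F1-int (47), and just over it LTR86B1 and LTR85a (51 each). The knockout libraries are labelled Dnmt3L knockout on a C57BL/6 background, and the libraries set beside them come from littermates that are heterozygous for Dnmt3L at both ages. Each library is RNA of whole testes pooled from 7 or 8 mice at 16.5dpc and from 3 mice at 10dpp, so a pool averages over animals and there is 1 library a side. The labels give no construct of the knockout allele, and the tables hold no gene, so neither the Dnmt3L transcript nor a marker of testis or of any cell type could be read.

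Dnmt3L is a cofactor without catalytic activity of its own that recruits and stimulates the de novo DNA methyltransferases. In male mice it acts in prospermatogonia, the arrested fetal germ cells, where the DNA of transposable elements is methylated before birth. At 10dpp a normal testis holds spermatogonia and the first meiotic cells among Sertoli, Leydig and peritubular cells. Mouse transposable elements fall into LTR retrotransposons, which resemble retroviruses and are split into classes ERV1, ERVK, ERVL and MaLR, into LINE-1 elements that code for their own reverse transcriptase, into SINEs that borrow it, and into DNA transposons that no longer move in the mouse.

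Listed counts summed to between 1548394 and 1671536 in the knockout libraries and between 2035033 and 2275706 in the control libraries of these ages. Levels are given as CPM, a family's count scaled to a library of fixed size, with TMM factors as a correction for differences in library composition. A level depends on how many copies a family has and how long they are, so levels were compared within a family only. The 16.5dpc knockout library stood apart from the other libraries of these ages. It was the highest or the lowest of the 4 in 494 of the 669 families, against 233 for the 16.5dpc control, 307 for the 10dpp control and 304 for the 10dpp knockout. Its median distance from the median of the other 3 was 0.29 on the log2 scale, against 0.12, 0.14 and 0.14 in the same order. Every knockout ratio below has this library as its denominator, so none of them can be given without it. In whole testis, fewer cells of a type and less RNA per cell cannot be told apart. With 1 library a side, age and library cannot be told apart either.

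Between 16.5dpc and 10dpp the knockout libraries differed in both directions. MMERGLN-int, IAPLTR3 and LTR81B were among the families with lower levels at 10dpp, and RLTR9B, MER34B-int and Tigger16a among those with higher levels. At 2-fold or more, 12 of the 669 families (1.79%) were higher at 10dpp and 24 (3.59%) lower. At 1.5-fold or more, 60 (8.97%) were higher and 81 (12.1%) lower. With upper quartile factors in place of TMM these counts were 7 and 33 at 2-fold, and 41 and 93 at 1.5-fold. A 95% counting interval, which covers counting error only and not the spread between animals or libraries, lay above 0 for 222 families (33.2%) and below 0 for 204 (30.5%). The median log2 ratio over all 669 was 0.01. Large ratios were more common where counts were few: 17 of 147 families with under 200 counts were past 2-fold, against 13 of 225 with 200 to 1000 counts and 0 of 64 with 10000 or more. With 1 library a side no p-value belongs to any of these ratios.

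**Figure D1:**
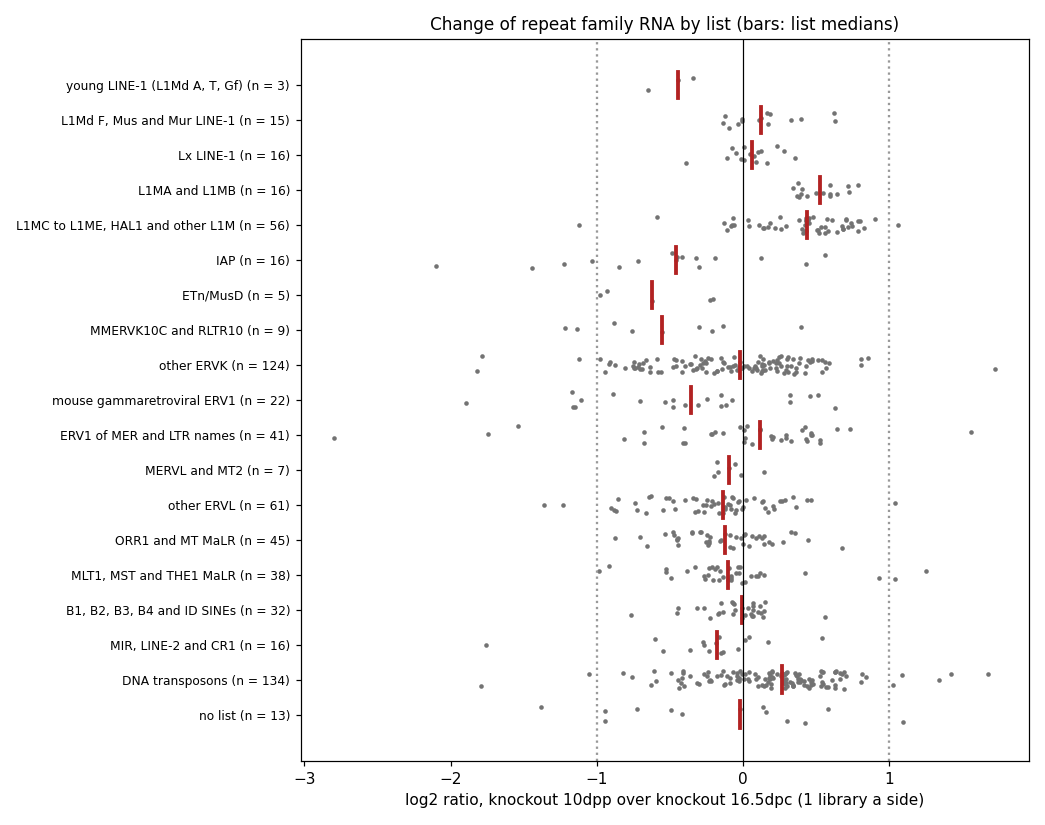
Log2 ratio of 10dpp over 16.5dpc in the knockout libraries for each of the 669 families (points), by list, with list medians as bars and dotted lines at 2-fold. The L1MA and L1MB families all lie right of 0, with a median of 0.52, while the ETn/MusD families all lie left of it, with a median of -0.63.

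LINE-1 families differed between the youngest and the oldest lists, but the list medians did not rise step by step with evolutionary age. The youngest, L1Md_A, L1Md_T and L1Md_Gf, which include copies that still move, were lower at 10dpp. L1Md_T was at 14361 CPM at 16.5dpc and 10529 CPM at 10dpp in the knockouts, a level 1.36-fold lower (95% counting interval 1.34 to 1.39). L1Md_A was at 8096 and 6376 CPM, 1.27-fold lower (1.24 to 1.30), and L1Md_Gf at 605 and 385 CPM, 1.57-fold lower (1.42 to 1.74). The control libraries differed in the same direction, with 12335 and 9632 CPM for L1Md_T and 7283 and 5463 CPM for L1Md_A. For L1Md_T the knockout log2 change was -0.45 and the control change -0.36. At both ages the knockout library lay above the control of its age for each of these 3 subfamilies.

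The 2 oldest LINE-1 lists had median ratios above 0. All 16 families named L1MA or L1MB, which spread before the mouse lineage arose, were higher with intervals above 0, against 33.2% of all families. At least 1.5-fold higher were 7 of the 16, against 8.97% of all families. Their median log2 ratio was 0.52, with a range from 0.34 for L1MB3 to 0.78 for L1MA10. L1MA6, given as an abundant example chosen after its value was seen, was at 792 CPM at 16.5dpc and 1309 CPM at 10dpp, and at 1242 and 1284 CPM in the controls. In the list of L1MC to L1ME, HAL1 and other L1M names, 40 of 56 intervals lay above 0 and 2 below. Over all families 33.2% lay above 0 and 30.5% below. The median of this list was 0.44. The ends of this list were L1MEg2, 2.09-fold higher (1.19 to 3.91, from 18 and 42 counts), and L1M2b, 2.18-fold lower (1.66 to 2.90). In the controls the medians were 0.07 for L1MA and L1MB and 0.05 for the other list.

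In the knockout at 16.5dpc L1MA and L1MB together took 1.21% of the listed counts (exact Clopper-Pearson interval 1.20 to 1.23), against 1.71% at 10dpp (1.69 to 1.73). The controls stood at 1.75% and 1.80%. The L1MC to L1ME list took 3.08% (3.06 to 3.11) at 16.5dpc and 4.48% (4.45 to 4.52) at 10dpp in the knockouts, and 4.37% and 4.38% in the controls. For both lists the 16.5dpc knockout library was thus the low one of the 4, and the other 3 lay close together. It was the lowest of the 4 in 16 of 16 L1MA and L1MB families and in 44 of 56 of the other list.

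Families of intermediate age lay between these ends. The 15 L1Md F, Mus and Mur families had a median log2 ratio of 0.13, from -0.14 for L1Md_F2 to 0.63 for L1_Rod. Of their intervals 9 lay above 0 and 3 below, against 33.2% and 30.5% of all families. L1Md_F2 was at 17331 and 15758 CPM in the knockouts and at 17280 and 15578 CPM in the controls, so its difference between the ages was alike in both genotypes. The 16 Lx families, of rodent origin, had a median of 0.06, which turned to -0.028 with upper quartile factors. Lx9 was highest (1.28-fold, 1.25 to 1.31) and Lx3B lowest (1.31-fold lower, 1.22 to 1.40).

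**Figure D2:**
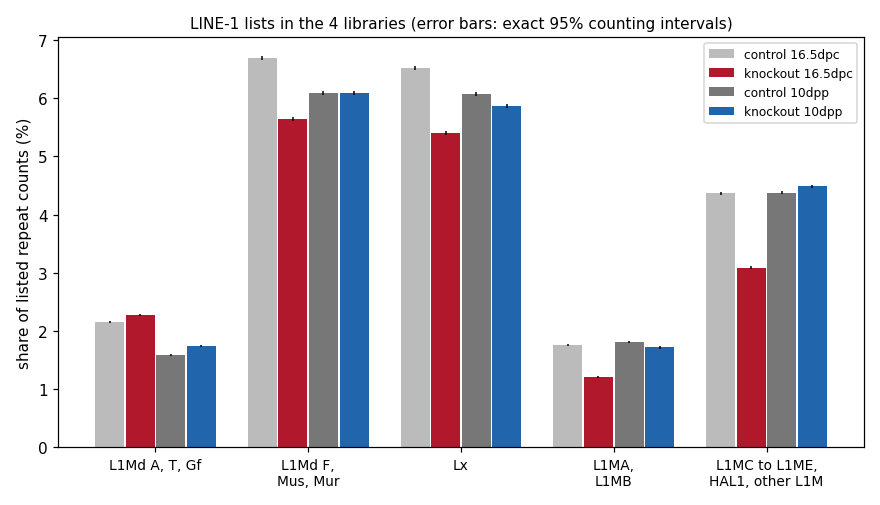
Share of the listed repeat counts (%) taken by 5 LINE-1 lists, youngest at the left, in the control and knockout libraries of 16.5dpc and 10dpp, with exact 95% counting intervals. For the 2 oldest lists the 16.5dpc knockout bar is the low one (1.21% and 3.08%), while for the youngest list both 16.5dpc bars (2.15% and 2.27%) stand above both 10dpp bars (1.58% and 1.74%).

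IAP elements, intracisternal A-particle retrotransposons of class ERVK, split into members that were higher and members that were lower at 10dpp. IAPEz-int, the internal part that codes for the particle proteins, was at 11979 CPM at 16.5dpc and 16136 CPM at 10dpp in the knockouts. That is 1.35-fold higher (1.32 to 1.37), while the controls were at 6929 and 5666 CPM. IAPLTR1_Mm, the LTR that drives these copies, was at 1348 and 1987 CPM, 1.47-fold higher (1.39 to 1.56), against 846 and 623 CPM in the controls. IAPLTR2_Mm was at 1053 and 1145 CPM, 1.09-fold higher (1.02 to 1.16), against 760 and 512 CPM in the controls. In these 3 entries the knockout level was higher at the later age and the control level lower.

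The other 13 IAP entries had log2 ratios below 0. Of all 16 IAP entries 11 had intervals below 0 and 3 above, against 30.5% and 33.2% of all families. The list's median was -0.46, and 4 of 16 entries were at least 2-fold lower, against 3.59% of all families. IAPLTR3 was at 89.7 CPM at 16.5dpc and 20.7 CPM at 10dpp in the knockouts, 4.29-fold lower (2.95 to 6.44), and at 56.6 and 17.2 CPM in the controls. Its internal entry IAPLTR3-int was at 400.5 and 171 CPM, 2.34-fold lower (2.03 to 2.71), and at 195 and 166 CPM in the controls. IAPLTR4 was at 140.4 and 51.5 CPM, 2.72-fold lower (2.12 to 3.56), and IAPLTR4_I, its internal entry, 2.05-fold lower (1.51 to 2.78). For IAPLTR3-int and IAPLTR4 the 10dpp knockout level was close to that of both controls, and the 16.5dpc knockout level was the high one. IAPEY3-int, from a separate IAP lineage, was at 4541 and 2764 CPM, 1.64-fold lower (1.58 to 1.71), and at 2576 and 1929 CPM in the controls. IAPLTR1a_Mm, a variant LTR, was 1.25-fold lower (1.14 to 1.37) in the knockouts, with log2 changes of -0.32 there and -0.30 in the controls.

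Because IAPEz-int holds most IAP counts, the list as a sum differs in sign from its median. Summed IAP counts took 2.16% of the listed counts (2.13 to 2.18) at 16.5dpc and 2.41% (2.39 to 2.44) at 10dpp in the knockouts. The scaled log2 ratio of these sums was 0.13, against -0.33 in the controls. Control shares were 1.39% and 1.06%.

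**Figure D3:**
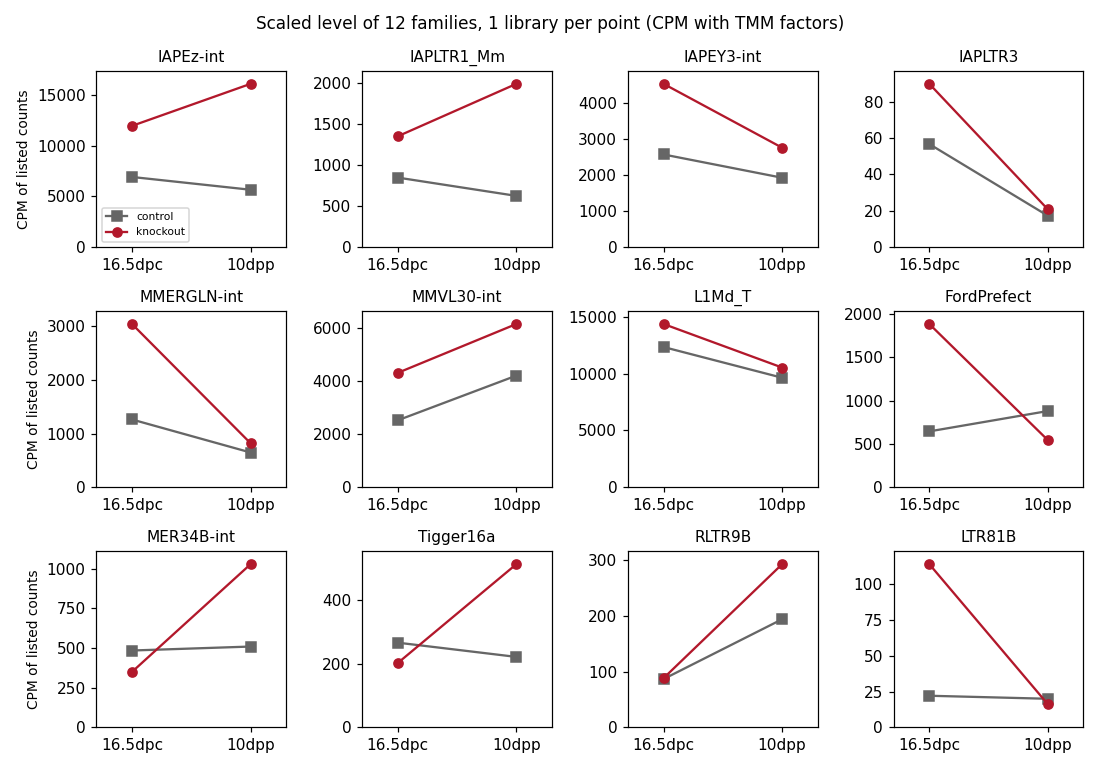
Level in CPM of 12 families, picked after their values were seen, at 16.5dpc and 10dpp in control (grey squares) and knockout (red circles) libraries, 1 library per point. IAPEz-int and IAPLTR1_Mm are higher at 10dpp in the knockout line and lower in the control line, and MMERGLN-int and LTR81B are at 3043 and 114 CPM in the 16.5dpc knockout library and at no more than 1263 and 22 CPM in the others.

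ETn/MusD elements, another ERVK group with copies that still move in mice, were lower at 10dpp in all 5 entries, each with an interval below 0. Their median was -0.63, from -0.20 for ETnERV3-int to -0.98 for ETnERV-int, and 3 of 5 were at least 1.5-fold lower. Over all families 30.5% had intervals below 0 and 12.1% were at least 1.5-fold lower. ETnERV2-int, an internal sequence, was at 2718 and 2326 CPM, 1.17-fold lower (1.12 to 1.22), and at 1927 and 1731 CPM in the controls. RLTRETN_Mm, the LTR, was at 856 and 554 CPM, 1.54-fold lower (1.42 to 1.68), and at 611 and 533 CPM in the controls. The control median for the list was -0.20.

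In the MMERVK10C and RLTR10 list 7 of 9 intervals lay below 0 and 1 above, against 30.5% and 33.2% of all families. The list's median was -0.55 in the knockouts and -0.42 in the controls. MMERVK10C-int, an internal sequence of class ERVK, was the one above. It was at 2378 CPM at 16.5dpc and 3127 CPM at 10dpp, 1.31-fold higher (1.26 to 1.37), and at 1554 and 1743 CPM in the controls. Its LTR, RLTR10C, was at 664 and 602 CPM, 1.10-fold lower (1.01 to 1.20). RLTR10-int was at 1717 and 738 CPM, 2.33-fold lower (2.18 to 2.49), and at 1121 and 750 CPM in the controls. Near-identical entries can exchange reads, and how far they do between MMERVK10C-int and RLTR10-int was not tested.

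Mouse ERV1 elements, related to murine leukaemia viruses, were more often lower than higher at 10dpp. Of 22 families 14 had intervals below 0 and 5 above, against 30.5% and 33.2% of all families. The median was -0.35, and 5 were at least 2-fold lower, against 3.59% of all families. The 5 with intervals above 0 were the VL30 entries MMVL30-int and RLTR6_Mm and, named after their values were seen, MURVY-LTR, RLTR1C and RLTR24. MMERGLN-int, a proviral internal sequence, was at 3043 CPM at 16.5dpc and 819 CPM at 10dpp, 3.71-fold lower (3.50 to 3.95), and at 1263 and 647 CPM in the controls. The related LTR RLTR1B was at 663 and 357 CPM, 1.86-fold lower (1.68 to 2.06). MuLV-int was at 1377 and 949 CPM, 1.45-fold lower (1.36 to 1.55), and the LTR RLTR4_Mm 1.19-fold lower (1.11 to 1.26). The VL30 pair was higher at 10dpp in both genotypes. MMVL30-int, a VL30 retrotransposon internal sequence that no longer codes for its own proteins, was at 4302 and 6139 CPM in the knockouts, 1.43-fold higher (1.38 to 1.47), and at 2517 and 4198 CPM in the controls. Its LTR RLTR6_Mm was at 927 and 1432 CPM, 1.54-fold higher (1.45 to 1.65), and at 631 and 946 CPM in the controls. The control median for the whole list was -0.08.

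In the remaining ERVK families 44 intervals lay above 0, 45 below and 35 held 0. Among all families 33.2% lay above 0 and 30.5% below. At 1.5-fold or more 22 were lower and 5 higher, against 12.1% and 8.97% of all families. At 2-fold or more 3 were lower and 1 higher. Both 2-fold shares were under the 3.59% and 1.79% of all families. The median of this list, -0.02, turned to 0.0047 when total counts set the scale. The ends of this list were far apart. RLTR9B, an LTR, was at 88.3 CPM at 16.5dpc and 293 CPM at 10dpp, 3.31-fold higher (2.73 to 4.04), and at 86.7 and 194 CPM in the controls. It had the highest ratio of the 669. The RLTR44 entries were lower together, with 6 of 6 intervals below 0, against 30.5% of all families. Their log2 ratios ran from -1.82 for RLTR44D to -0.71 for RLTR44E. RLTR44D was at 65 and 18.2 CPM, 3.53-fold lower (2.33 to 5.45), and RLTR44B at 122 and 35.1 CPM, 3.45-fold lower (2.58 to 4.73). In the controls RLTR44B was at 92 and 46.9 CPM. These entries are subfamilies of 1 LTR family and share sequence, so they are not independent of each other.

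MERVL families lay near 0. MERVL-int, the internal part of the element known for its transcription in 2-cell embryos, was at 2192 and 2425 CPM, 1.11-fold higher (1.06 to 1.16), and its LTR MT2_Mm at 898 and 781 CPM, 1.15-fold lower (1.06 to 1.24). The 7 MERVL and MT2 families ranged from -0.20 to 0.15. The 61 other ERVL families had a median of -0.14, with 18 intervals below 0 and 5 above. The share below was close to the 30.5% of all families, and the share above was under their 33.2%. By 1.5-fold or more 11 were lower and 1 higher, against 12.1% and 8.97% of all families. The ends of that list rest on few reads. MER73 had 19.3 and 44.3 counts, a level 2.05-fold higher (1.20 to 3.82) at the later age. LTR88a had 52 and 22 counts, 2.57-fold lower (1.55 to 4.50).

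MaLR elements, the nonautonomous relatives of ERVL that often lie in mouse gene transcripts, differed between their LTR and internal entries. All 9 MT LTRs had intervals below 0, against 30.5% of all families, with log2 ratios from -0.65 for MTA_Mm to -0.16 for MTE2a. Of the 12 ORR1 LTRs 9 had intervals below 0 and 0 above, with a median of -0.23. Internal entries lay higher, with medians of -0.01 over 11 MT and 0.14 over 13 ORR1 entries. Set against its own LTR, the internal entry had the higher ratio in 24 of 29 MaLR pairs, with a median gap of 0.34 on the log2 scale. The exceptions were MTE2b, MTEb, MLT1A0, MLT1C and MLT1H. ORR1A2-int had a log2 ratio of 0.45 (0.36 to 0.54) and ORR1A2 of -0.30 (-0.35 to -0.25). In the controls the internal entry was the higher in 17 of the 29 pairs and the median gap was 0.01. Over the 45 ORR1 and MT families the 16.5dpc knockout was the highest of the 4 libraries in 25 and the lowest in 15. The 10dpp knockout was the highest in 5 and the lowest in 21. ORR1B2-int (1.60-fold, 1.39 to 1.85) and MTEb-int (1.83-fold lower, 1.59 to 2.11) were the ends of the ORR1 and MT list.

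**Figure D4:**
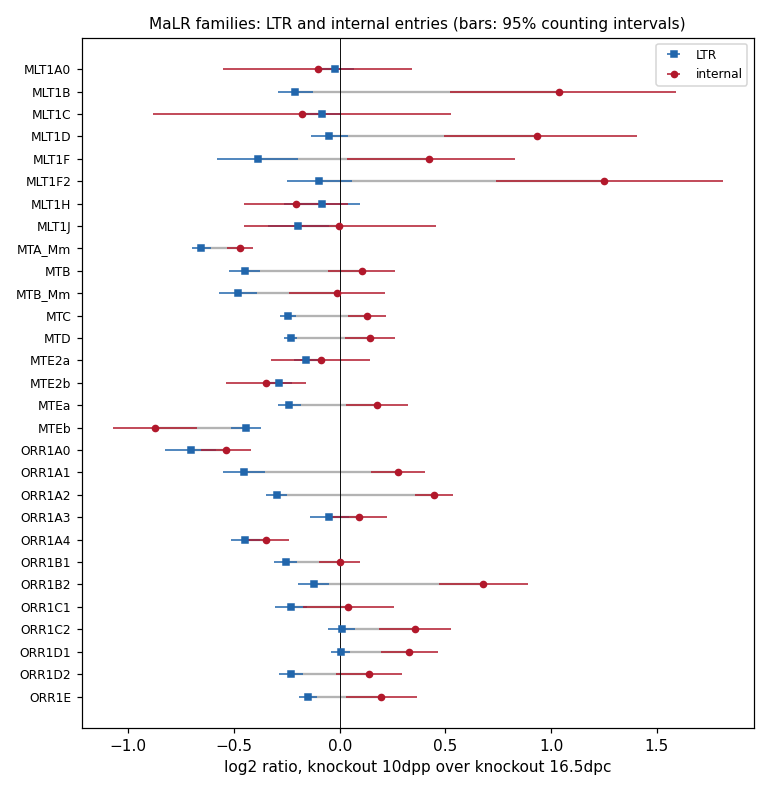
Log2 ratio of 10dpp over 16.5dpc in the knockout libraries for the LTR (blue squares) and internal (red circles) entry of 29 MaLR families, with 95% counting intervals. In 24 rows the internal entry lies right of its LTR.

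Over all 52 pairs of an internal entry and an LTR that both passed the minimum, MaLR included, the internal entry had the higher ratio in 36. Pairs outside MaLR went both ways: the internal entry minus the LTR was 0.54 for MMERVK10C-int and 0.35 for MERVL-int, but -1.0 for MMERGLN-int against RLTR1B. IAPEz-int is in 3 of these pairs and RLTR1B in more than 1, so pairs share entries.

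The MLT1, MST and THE1 list, made of older MaLR families, had a median of -0.10 over 38 families. MLT1F2-int (2.38-fold higher, 1.67 to 3.51, from 42.1 and 111 counts) and MLT1B-int (2.05-fold higher, 1.43 to 3.01) were at its upper end and MLT1E3 at its lower end. MLT1E3 was at 444 CPM in the 16.5dpc knockout and 224 CPM at 10dpp, 1.98-fold lower (1.74 to 2.25), against 205 and 220 CPM in the controls.

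SINEs take the largest share of listed counts of any list, 48.3% at 16.5dpc and 47.4% at 10dpp in the knockouts, and their ratios lay close to 0. Over 32 families the median was -0.01, which turned to 0.020 when total counts set the scale. Of the 32 intervals 11 lay above 0 and 14 below, against 33.2% and 30.5% of all families. Only Alu (1.71-fold lower, 1.01 to 2.96, from 39 and 25 counts) was past 1.5-fold. AluG_3 was the highest (1.47-fold, 1.14 to 1.93). The youngest B1 subfamilies were lower at 10dpp. B1_Mus1 was at 39944 and 32057 CPM, 1.25-fold lower (1.23 to 1.26), B1_Mus2 1.21-fold lower (1.19 to 1.22) and B1_Mm 1.17-fold lower (1.15 to 1.19). In the controls B1_Mus1 was at 28871 and 32813 CPM, so that for B1_Mus1 the 16.5dpc knockout library was the high one and the 16.5dpc control the low one. Over the 32 SINE families the 16.5dpc control was the lowest library in 26, and the 16.5dpc knockout was the highest in 15. The control median of the SINE list was 0.14. B2_Mm2 was at 31375 and 34584 CPM in the knockouts, 1.10-fold higher (1.09 to 1.12), and at 26997 and 33455 CPM in the controls. The remaining SINEs among the 10 families with the most counts were B3, B3A, ID_B1, RSINE1, B4A and PB1D10. Their log2 ratios lay between -0.17 for B4A and 0.06 for B3, and that of B3 turned to -0.025 with upper quartile factors.

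The ancient MIR, LINE-2 and CR1 families were slightly lower, with a median of -0.18. Of 16 intervals 11 lay below 0 and 2 above, against 30.5% and 33.2% of all families. All 5 MIR entries had intervals below 0, with log2 ratios from -0.36 to -0.14. CR1_Mam was 1.45-fold higher (1.19 to 1.77) and L5 3.39-fold lower (2.18 to 5.56, from 81 and 26 counts). The control library was lower for L5 too, at 35.8 and 19.7 CPM.

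DNA transposons, relics of elements that once moved by excision and insertion, were more often higher than lower at 10dpp. Of 134 families 52 had intervals above 0 and 17 below, against 33.2% and 30.5% of all families, so the share above was near that of all families and the share below was lower. The median was 0.26, and 20 were at least 1.5-fold higher against 7 lower, where all families had 8.97% and 12.1%. The Charlie names had a median of 0.33 over 30 families and the Tigger names of 0.27 over 18. The control median of the list was -0.05. Of the 4 libraries the 16.5dpc knockout was the lowest in 70 of the 134 families and the highest in 28. The 10dpp knockout was the highest in 48 and the lowest in 14. Tigger16a was at 203 CPM at 16.5dpc and 514 CPM at 10dpp, 2.53-fold higher (2.22 to 2.89), and at 267 and 222 CPM in the controls. In this family the 10dpp knockout library was the high one. Charlie21a was 3.19-fold higher (1.82 to 6.24, from 15 and 54 counts), with 18.4 and 40.8 CPM in the controls. Kanga1d (2.68-fold), Charlie13b (2.12-fold) and ORSL-2b (2.03-fold) were the other DNA families at least 2-fold higher, each from fewer than 100 counts in either library. FordPrefect stood at the other end. It was at 1884 CPM in the 16.5dpc knockout library and at 543 CPM at 10dpp, 3.47-fold lower (3.22 to 3.74), with 645 and 880 CPM in the controls.

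The ERV1 entries with MER and LTR names, most of them shared with other mammals, had a median of 0.11 over 41 families and some of the most extreme ratios. MER34B-int, an internal sequence, was at 350 CPM at 16.5dpc and 1029 CPM at 10dpp, 2.94-fold higher (2.67 to 3.25), from 534 and 1729 counts. Both controls (485 and 510 CPM) lay between these values, nearer to the 16.5dpc knockout. LTR81B had the lowest ratio of all families, at 114 and 16.1 CPM, 6.96-fold lower (4.71 to 11.1, from 174 and 27 counts), with 22 and 19.9 CPM in the controls. LTR48B was at 167 and 57.2 CPM, 2.91-fold lower (2.30 to 3.74), with 60.6 and 56.6 CPM in the controls. MER50 was 3.36-fold lower (2.03 to 5.96, from 62 and 20 counts), with 9.64 and 10.7 CPM in the controls. In LTR81B, LTR48B and MER50 the 10dpp knockout and both controls lay near each other and the 16.5dpc knockout above them. Among entries in no list, MamGypLTR1d was 2.13-fold higher (1.26 to 3.98) and MamGypLTR2 2.61-fold lower (1.76 to 4.0), both from fewer than 100 counts in either library.

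The control libraries of the same ages differed less. There 3 of 687 families (0.437%) were higher at 10dpp by 2-fold or more and 5 (0.728%) lower, and by 1.5-fold or more 9 (1.31%) and 35 (5.09%). Over the 667 families past the minimum in both genotypes the SD of the log2 ratios was 0.52 in the knockouts and 0.30 in the controls, and in 476 the log2 ratio was larger in size, whatever its sign, in the knockouts. Across these families Pearson's r between the knockout and control changes was 0.46 and Spearman's rho 0.41. The 2 comparisons share no library, but families share reads and are not independent. Of the 24 families at least 2-fold lower in the knockouts, 21 were below 0 in the controls and 3 at least 2-fold lower there. Of the 12 higher, 7 were above 0 in the controls and 2 at least 2-fold higher. The control median was -0.44 over the 24 and 0.05 over the 12, against -0.01 over all 669 families. For 21 of the 24 the 16.5dpc knockout library lay farther from the mean of both controls than the 10dpp knockout did, and for the 12 higher this held in 5. Both sets were picked by the ratio between these knockout libraries. Over all 669 families the 16.5dpc knockout was the highest or the lowest library in 494 and the 10dpp knockout in 304. Whether the change with age differs between genotypes has no test with 1 library each, and the differences have counting intervals only. Among families with 200 or more counts the knockout change exceeded the control change by 1.61 for Tigger16a (1.35 to 1.86), 1.48 for MER34B-int (1.30 to 1.67), 1.12 for Charlie18a (0.66 to 1.58), 1.12 for MamRep1161 (0.63 to 1.60) and 1.0 for IAPLTR1_Mm (0.87 to 1.13). At the other end the differences were -2.65 for LTR81B (-3.47 to -1.83), -2.24 for FordPrefect (-2.39 to -2.10), -1.44 for LTR48B (-1.93 to -0.96), -1.20 for IAPLTR4 (-1.70 to -0.70) and -1.09 for MLT1E3 (-1.34 to -0.83). For IAPEz-int the difference was 0.72 (0.68 to 0.76) and for L1Md_T -0.09 (-0.13 to -0.05).

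**Figure D5:**
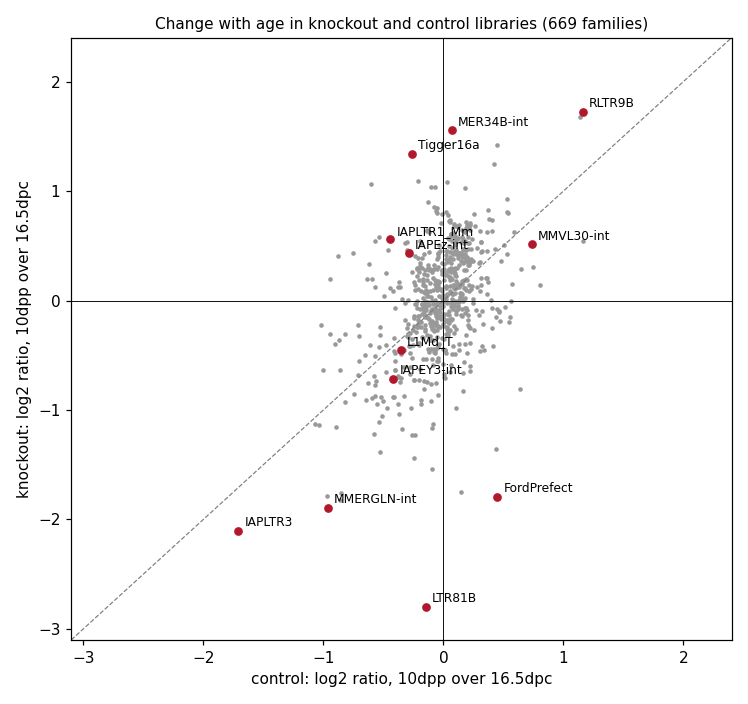
Log2 ratio of 10dpp over 16.5dpc in the control libraries (x axis) and in the knockout libraries (y axis) for the 669 families, with 12 families labelled that were picked after their values were seen and a dashed line of equal change. RLTR9B and IAPLTR3 lie on the same side of 0 in both genotypes, while FordPrefect and Tigger16a lie far from the line.

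A test was possible only for the age difference averaged over both genotypes, with genotype as a term in edgeR's quasi-likelihood model of the 4 libraries and 1 residual degree of freedom. At an adjusted p of at most 0.05 it called 6 of 728 families (0.824%), 1 higher (0.137%) and 5 lower (0.687%) at 10dpp, and DESeq2 also called all 6. RLTR9B was higher by 1.44 ± 0.20 (SE) on the log2 scale (edgeR adjusted p = 0.0207). Lower were IAPLTR3 (-1.91 ± 0.28), MMERGLN-int (-1.43 ± 0.22), RLTR10A (-1.09 ± 0.16) and RLTR1B-int (-1.02 ± 0.15), each with an edgeR adjusted p of 0.0207, and MMETn-int (-0.88 ± 0.14, edgeR adjusted p = 0.0277). In each of the 6 both genotypes went the same way. The 1 residual degree of freedom holds the difference of the age effect between genotypes. The test thus favours families in which they go the same way, and this is no separate result. RLTR10A, RLTR1B-int and MMETn-int, of the RLTR10, gammaretroviral and ETn/MusD lists, are named because they were called. The edgeR model called 0 families without the filter on low counts (92 at an unadjusted p under 0.05) and 0 with all 6 libraries of the series (63), while DESeq2 on the 4 libraries called 15. L1MA and L1MB families, IAPEz-int (adjusted p = 0.885) and FordPrefect (adjusted p = 0.529) did not pass the edgeR test. The log2 changes in knockouts and controls were 0.43 and -0.29 for IAPEz-int and -1.79 and 0.45 for FordPrefect. For L1MA and L1MB the medians were 0.52 and 0.07. A test of the average over genotypes cannot decide whether the knockout level changed in such families.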

How the data were processed

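Total RNA of whole testis was extracted with TRIzol and made into stranded Illumina TruSeq mRNA libraries, per the labels' protocols. Each deposited table holds estimated counts for repeat families, which need not be whole, and lists only families above 0. Reads were aligned with Bowtie to mm9, per the submitters' processing notes. How reads were shared between families, whether strand was used, which repeat annotation served and which Bowtie version: none of these is given in the sources used here. A value sums over all copies of a family, so no copy, coordinate or sequence is given, and reads of copies inside gene transcripts are included.

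TMM factors came from all 6 libraries (edgeR 4.0.16, R 4.3.3). Ratios used counts plus 0.5 and a minimum of 50 counts over both knockout libraries. Exact Clopper-Pearson 95% intervals used rounded counts, conditional on their sum (scipy 1.17.1). Intervals of the difference between genotypes used a normal approximation on the log scale. The averaged age effect was tested with edgeR's quasi-likelihood test on rounded counts (default filter, Benjamini-Hochberg adjustment at 0.05) and with DESeq2 1.42.0 as an alternative. Families were put into 18 lists by name patterns, some set after the names were seen, so a list need not match its class. Named are the 12 highest and 12 lowest ratios with intervals off 0, the 10 families with the most counts, the ends of each list, the 5 largest and 5 smallest differences between genotypes among families with 200 or more counts, and a fixed set of well-known elements with their LTRs. Members and lists were chosen with earlier results of these data known. Other scalings, minimums and added counts were tried. No replicate exists, so no p-value measures the spread between animals.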

Additional observations from a re-analysis of the deposited data

Results flagged for a closer look

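In 14 named families the level went one way with age in the knockout libraries and the other way in the controls. Each change had a counting interval off 0, and the difference between genotypes was not tested. Some families, such as FordPrefect and Tigger16a, were named partly for the size of this difference, so their presence here is no separate result. The differences (knockout minus control log2 change) were -2.24 for FordPrefect, -0.53 for B1_Mus2, -0.50 for B1_Mus1, -0.43 for B1_Mm, -0.24 for B4A, -0.20 for RSINE1 and -0.14 for ID_B1. They were 0.69 for IAPLTR2_Mm, 0.72 for IAPEz-int, 1.0 for IAPLTR1_Mm, 1.12 for MamRep1161, 1.12 for Charlie18a, 1.61 for Tigger16a and 1.66 for L1MEg2. Over all 669 families this opposite movement was found in 51. Each side is 1 library, so these are differences between 4 libraries.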

How the results depend on the processing

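The number of families at least 2-fold higher at 10dpp in the knockouts (12) was 7 with upper quartile factors, 3 with a minimum of 200 counts, 20 with a minimum of 10 counts and 6 with 5 counts added. The number at least 2-fold lower (24) was 37 with a minimum of 10 counts and 16 with a minimum of 200 counts. The number at least 1.5-fold higher (60) was 37 with a minimum of 200 counts. Another minimum also changes how many families are counted, so these numbers are not shares of the same set. Medians near 0 turned sign: with scaling on total counts the SINE median became 0.020 and that of other ERVK 0.0047. The median of all members became -0.0058 with DESeq2 size factors and -0.081 with upper quartile factors. With the latter Lx LINE-1 had -0.028, the median difference between genotypes was -0.055 and B3 had -0.025. The families called for the averaged age effect (6) were 40 with edgeR on total counts, 15 with DESeq2, 0 with edgeR without the filter (92 at an unadjusted p under 0.05) and 0 with edgeR on all 6 libraries (63 at an unadjusted p under 0.05). The cause was not tested. No paired analysis was possible because each group is 1 library without a replicate number, and for the same reason none could be left out. Reads shared between similar families and the lack of replicates limit every ratio, and families under 200 counts have a median interval width of 1.15 on the log2 scale.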
